A study of Mus musculus with 40 samples.

Results

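Oxidative phosphorylation genes, the nuclear genes for subunits and assembly factors of mitochondrial respiratory complexes I to V, were followed in RNA-seq libraries of mouse germinal-vesicle oocytes. Members were chosen by symbol: loci of the authors' RNA table whose gene name starts with Nduf (subunit classes a, b, c, s, v or assembly factors), Cox4 to Cox8, Uqcr, Sdh or Atp5, and that lie on the strand of that gene. This gave 77 loci of 76 genes among 38540 loci in all, 15023 of which carry a gene name. Complex I had 25 loci and its Ndufaf assembly factors 4, complex II had 4 and its Sdhaf assembly factors 2, complex III had 8, complex IV 14 and complex V 16. Ndufa4 and Ndufa4l2, now placed with complex IV, were kept as a pair, and Atp5s and Atp5sl, which carry an Atp5 name without being named subunits, were described apart. Atp5o had 2 loci, and the one with 57 reads in all lies outside the RefSeq gene.

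The study compared oocytes without the histone methyltransferase G9A, or without both G9A and its partner GLP, with control oocytes. Oocytes were dissected from the ovaries of mice aged 22 to 25 days, and a sample held 100 to 200 of them. The RNA groups were 3 control libraries with titles starting GKAO, 3 libraries of genotype G9a cKO with the same prefix, 3 control libraries with titles starting GKAQ, and 2 libraries of genotype G9a-Glp cDKO with that prefix. The titles mark the controls WT, and cKO and cDKO denote conditional single and double knockout; the alleles, the Cre driver, the strain and whether each library came from its own animal are not given in the sources used here, so p-values measure the spread between libraries. H3K9me2 ChIP-seq of the same 3 genotypes had 2 libraries each, and both mutants share its control libraries.

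Respiratory complexes I, III and IV pass electrons from NADH to oxygen and pump protons across the inner mitochondrial membrane, complex II feeds in electrons from succinate, and complex V, the ATP synthase, uses the proton gradient to make ATP. Most subunits are encoded in the nucleus, and others, among them core subunits of complexes I, III and IV, are encoded by mitochondrial DNA. No locus of the mitochondrial genome was in the RNA data, so those subunits were not measured. The growing oocyte is known for a very large mitochondrial population and for using pyruvate, rather than glucose, as a fuel. G9A and GLP, encoded by Ehmt2 and Ehmt1, place H3K9me2, a mark linked to gene repression.

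The RNA libraries held 1458868 to 2399680 reads. Their values were reads per 1000000 reads (RPM), which count reads over a whole locus and are not divided by its length. Glp (Ehmt1) had 104 to 117 reads in GKAO controls, 139 to 166 in G9a cKO, 144 to 173 in GKAQ controls, and 31 and 36 in cDKO. Reads of G9a (Ehmt2) were few, 9 to 13 in GKAO controls, 2 to 11 in G9a cKO, 8 to 30 in GKAQ controls, and 5 in each cDKO library, so this gene is a weak check of the labels. Of 12 oocyte marker genes, 11 were matched, all with at least 10 RPM. Their summed level was 20191 to 20879 RPM in GKAO controls, 21435 to 22349 in G9a cKO, 18908 to 19605 in GKAQ controls, and 19371 to 19597 in cDKO. Of the 11, 5 were called in G9a cKO (3 higher, 2 lower), 7 in cDKO (4 higher, 3 lower) and 5 between the control sets. The 13 granulosa cell markers together stood at 189 to 199.8 RPM in GKAO controls and 141 to 167 RPM in G9a cKO, which did not overlap, and at 136 to 167 RPM in GKAQ controls and 123 to 149 RPM in cDKO. None of the 13 was called in G9a cKO, 2 rose in cDKO (Inha and Fshr, each with at most 17 reads in a library), and Inha and Nr5a2 were lower in GKAQ than in GKAO controls. Of the 13, 2 had a mean of at least 10 RPM. The part of granulosa cells in the results was not tested. Haemoglobin loci had no read in any library.

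Most oxidative phosphorylation loci did not pass the test in either mutant. In G9a cKO, 1 of 77 loci was called at an adjusted p under 0.05: Ndufs4 fell. In cDKO, 4 of 77 were called: Cox6c, Ndufb4 and Cox5a rose and Atp5k fell. Over all loci, 1.79% were called in G9a cKO (0.737% lower) and 6.34% in cDKO (4.32% higher and 2.02% lower), and among named loci with a mean of at least 10 RPM the shares were 4.91% and 15.9%. Of the 62 members at that level, the same 1 and 4 loci were called (1.61% and 6.45%), so the share of members called was not above the background in either mutant. At an unadjusted p under 0.05 stood 6 of 77 members in G9a cKO and 11 of 77 in cDKO. Over all 38540 loci these counts were 4044 and 6143, and over the 6940 named loci with at least 10 RPM they were 1444 and 2232. The members' shares were thus not above the background here either.

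The members' intervals put a bound on what could have been missed. In G9a cKO, 56 of the 62 loci with at least 10 RPM had a 95% interval of the log2 fold change that lay within 1 unit of 0 (90.3%, against 86.6% of named loci at that level). In cDKO this held for 46 of 62 (74.2%, against 76.2%). The median log2 fold change of those 62 loci was -0.12 in G9a cKO and 0.18 in cDKO, beside 0.01 and 0.04 over named loci at that level. As a background for the signs given per complex, 31.6% of all loci and 51.3% of named loci with at least 10 RPM lay above 0 in G9a cKO, with a median of -0.31 over all loci. In cDKO 75.6% and 54.7% lay above 0, with a median of 0.20 over all loci. In each library, 43.6% to 49.8% of loci had no read and were given a fixed fill value. A locus without a read in any library takes its log2 fold change from the fill value and library depth alone. That value was 0.20 in cDKO and -0.32 in G9a cKO. The shares and medians over all loci thus do not measure expression alone, and named loci with at least 10 RPM are the closer background. When each library was centred on its own median, the median over all 77 members in cDKO went from 0.18 to 0.08, so this shift depends on the scaling. The members with at least 10 RPM also varied more between libraries than named loci with at least 10 RPM, which were not matched further for level. The median replicate SD was 0.26 against 0.16 log2 units in cDKO and 0.23 against 0.16 in G9a cKO. It was 0.21 against 0.18 in GKAO controls and 0.18 against 0.15 in GKAQ controls.

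**Figure D1:**
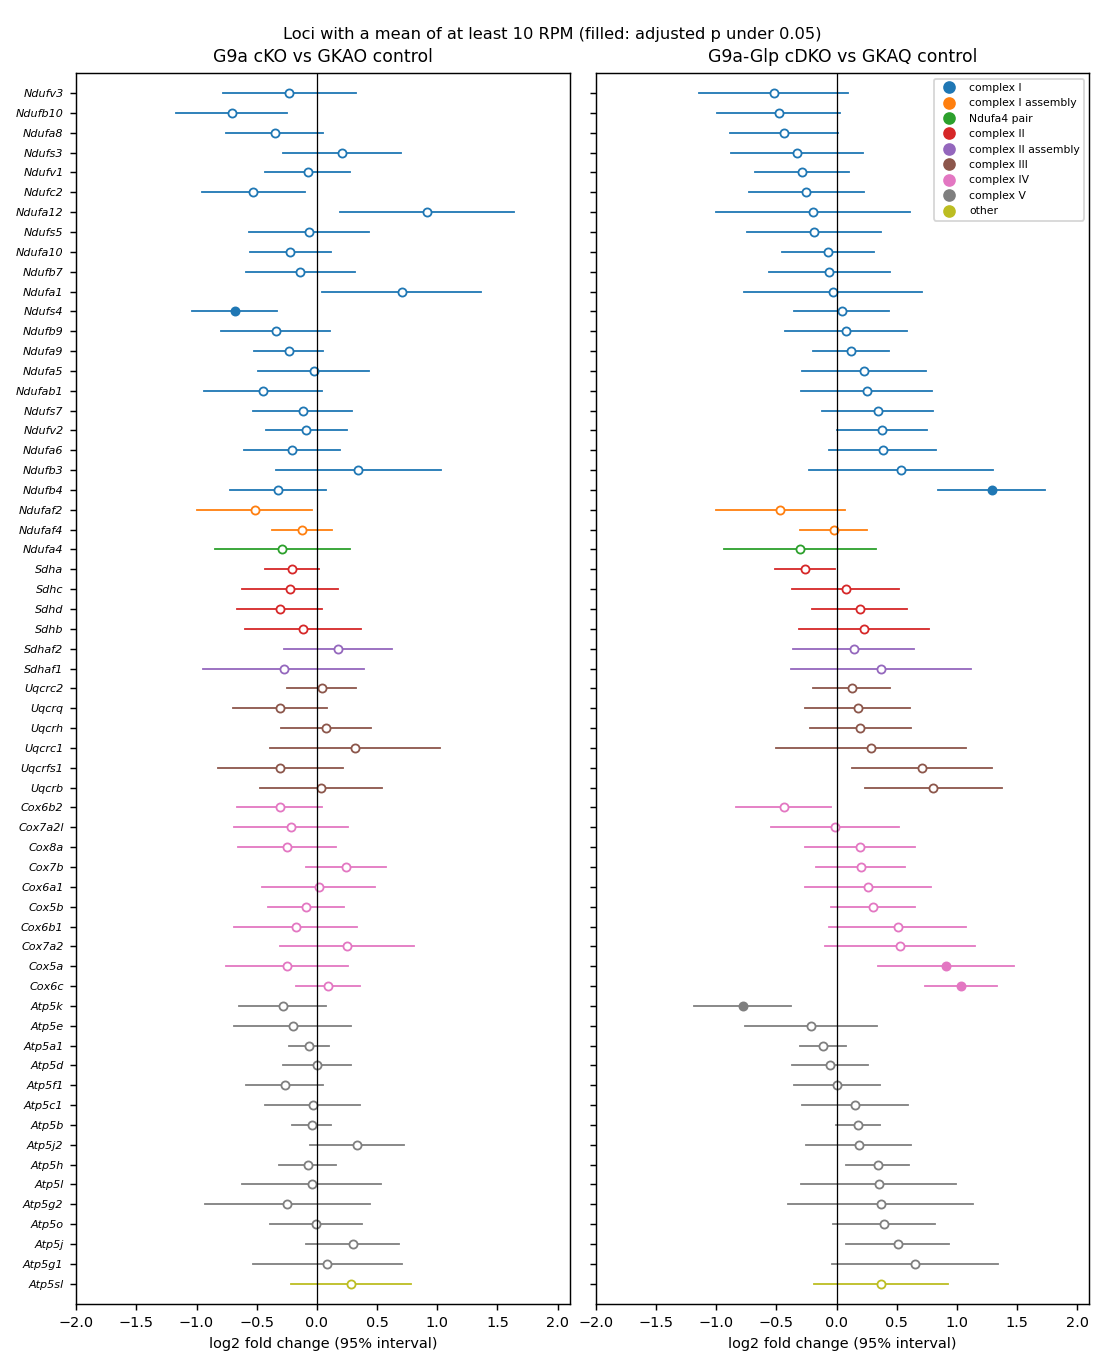
Log2 fold change (x axis) with its 95% interval for 61 of the 62 loci with a mean of at least 10 RPM (y axis), for G9a cKO on the left and cDKO on the right; colours mark the complexes and filled points an adjusted p under 0.05. Ndufs4 is the filled point in G9a cKO, and Cox6c, Ndufb4, Cox5a and Atp5k are filled in cDKO, while the intervals of most loci cross 0.

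Complex I is the NADH dehydrogenase, with a peripheral arm that takes up NADH and a membrane arm that pumps protons. Its 25 loci had a median log2 fold change of -0.17 in G9a cKO, with 5 of 25 above 0. Of named loci with at least 10 RPM 51.3% lay above 0, and of all loci, many without reads, 31.6%. In cDKO the median of the 25 loci was -0.03, with 12 of 25 above 0. Their summed level was 967, 971 and 1049 RPM in GKAO controls and 768, 912 and 946 RPM in G9a cKO. It was 994, 1010.1 and 1037 RPM in GKAQ controls and 1103 and 1062 RPM in cDKO. The G9a cKO libraries thus lay below and the cDKO libraries above their own controls, by ratios of means of 0.88 and 1.07. These sums are given without a test. The summed granulosa markers were also lower in G9a cKO than in GKAO controls, and the summed oocyte markers were higher.

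Ndufs4, an accessory subunit of the peripheral arm whose loss causes complex I deficiency, was the member called in G9a cKO (locus chr13:114287795-114388314, minus strand, GRCm38). Its level was 50.7, 47.1 and 70.3 RPM in GKAO controls and 30.1, 30.6 and 44.3 RPM in G9a cKO. All 3 G9a cKO libraries lay below all 3 controls, and the gene fell by 0.68 on the log2 scale (SE 0.18, adjusted p = 0.0136). Among libraries titled GKAO109 the difference was -0.70, and among those titled GKAO115 it was -0.93. The call was lost without GKAO control library 3 (-0.51, adjusted p = 0.271), without G9a cKO library 1 (-0.58, adjusted p = 0.138) and without G9a cKO library 2 (-0.60, adjusted p = 0.128). In cDKO it stood at 72.9 and 82.4 RPM, inside the range of 69.0 to 86.1 RPM of the GKAQ controls. A locus on the opposite strand over Ndufs4 held 199 reads against 1222 of the gene, and whether counting used strand is not stated. The window from 250 bases before to 50 after the RefSeq start of Ndufs4 (chr13:114388045-114388344, minus strand, GRCm38.p6) is shown because this was the member that fell; its capitals mark the letters AAGATGGCG searched for YY1, a factor known to act on mitochondrial genes.
Ndufs4: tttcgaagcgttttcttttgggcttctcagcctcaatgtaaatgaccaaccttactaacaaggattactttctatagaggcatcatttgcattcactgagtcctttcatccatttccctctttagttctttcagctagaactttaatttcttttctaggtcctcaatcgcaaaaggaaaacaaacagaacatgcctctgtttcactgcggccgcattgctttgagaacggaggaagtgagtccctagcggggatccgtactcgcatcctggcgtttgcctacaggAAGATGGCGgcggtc

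Ndufb4, an accessory subunit of the membrane arm, rose in cDKO (locus chr16:37647145-37654479, minus strand). Its level was 18.9, 33.8 and 31.5 RPM in GKAQ controls and 80.9 and 54.5 RPM in cDKO, and the cDKO libraries lay above all 3 controls. The gene rose by 1.29 on the log2 scale (SE 0.23, adjusted p = 1.9e-06). In the other set of libraries, GKAO controls had 48.0, 45.6 and 55.1 RPM and G9a cKO libraries 30.9, 41.5 and 48.0 RPM. The lower cDKO library thus lay within the range of the GKAO controls, and the GKAQ controls were the lowest group. Set against all 6 controls as one group, the log2 fold change in cDKO was 0.86 (adjusted p = 0.0063). With the title number as a term, where cDKO library 2 is set against GKAQ control library 2 alone, it was 0.69 (adjusted p = 0.32) and no longer called. RefSeq lists the protein-coding copies Ndufb4b and Ndufb4c on other chromosomes, so reads may be shared between them. None of the searched motifs stood in its promoter window (chr16:37654319-37654618, minus strand), printed as the promoter of the complex I gene that rose.
Ndufb4: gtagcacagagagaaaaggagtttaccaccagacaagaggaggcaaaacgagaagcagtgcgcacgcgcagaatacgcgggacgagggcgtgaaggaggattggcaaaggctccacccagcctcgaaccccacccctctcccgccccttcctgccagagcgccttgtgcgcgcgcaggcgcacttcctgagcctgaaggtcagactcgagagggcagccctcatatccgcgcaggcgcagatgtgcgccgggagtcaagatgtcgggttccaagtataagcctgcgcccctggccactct

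The remaining complex I loci were not called in either mutant. Ndufv3, an accessory subunit of the NADH-binding module, had the lowest log2 fold change in cDKO among complex I loci with at least 10 RPM (-0.52, SE 0.31, adjusted p = 0.48), at 15.9 and 13.0 RPM against 18.3 to 22.7 RPM. None of the 4 assembly factor loci was called in either mutant. Ndufaf4 took the most of their reads, with 118.2 to 120.4 RPM in GKAQ controls and 116.2 and 118.6 RPM in cDKO. Ndufaf2 had the lowest log2 fold change of them in cDKO (-0.47, SE 0.27, adjusted p = 0.44), and turned to 0.014 when all 6 controls were one group.

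Complex II, succinate dehydrogenase, links the respiratory chain to the citric acid cycle and is encoded entirely in the nucleus. None of its 4 loci was called, and all 4 had a 95% interval within 1 log2 unit of 0 in both mutants. Sdha, the catalytic flavoprotein, had 196.0, 186.4 and 182.2 RPM in GKAO controls and 157.8, 160.1 and 170.9 RPM in G9a cKO. In GKAQ controls it had 194.8, 207.5 and 190.3 RPM, and in cDKO 161.1 and 167.8 RPM. Every mutant library lay below every control library of its set, and in cDKO the log2 fold change of -0.26 (SE 0.13) had an adjusted p of 0.26 (0.0465 with voom weights on the recovered reads). Sdhb, the iron-sulphur subunit, had the highest log2 fold change of the complex in cDKO (0.23, SE 0.28, adjusted p = 0.60). The summed level of complex II was 305.3 to 344.1 RPM in GKAO controls, 259.3 to 291.9 RPM in G9a cKO, 306.1 to 338.8 RPM in GKAQ controls, and 303.5 and 304.1 RPM in cDKO. Here too the G9a cKO libraries lay below their controls, as the summed granulosa markers did, while the summed oocyte markers lay above theirs. The 2 cDKO libraries also lay below the GKAQ controls, the nearest of which was at 306.1 RPM. The assembly factors Sdhaf1 and Sdhaf2 were not called, with log2 fold changes of 0.37 (SE 0.38, adjusted p = 0.57) and 0.14 (SE 0.26, adjusted p = 0.71) in cDKO; Sdhaf2 turned to -0.20 with the title number as a term.

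Complex III, the cytochrome bc1 complex, passes electrons from ubiquinol to cytochrome c. None of its 8 loci was called in either mutant. In cDKO all 8 log2 fold changes lay above 0, from 0.07 to 0.80, with a median of 0.19. Over named loci with at least 10 RPM the median was 0.04, and 54.7% lay above 0. Over all loci, many without reads, these values were 0.20 and 75.6%. Uqcrb, a ubiquinone-binding subunit, had 18.9, 15.8 and 22.7 RPM in GKAQ controls and 30.2 and 36.2 RPM in cDKO, so these groups did not overlap. Its log2 fold change of 0.80 (SE 0.29) had an adjusted p of 0.073, and passed at 0.0198 when only loci with at least 10 RPM were tested. Uqcrc2, a core protein, took the most reads of the complex and had 91.1 to 97.5 RPM in GKAQ controls against 97.9 and 106.1 RPM in cDKO (log2 fold change 0.13, SE 0.16, adjusted p = 0.63). Summed over the complex, GKAQ controls had 269.0, 269.2 and 256.8 RPM and cDKO 321.1 and 318.9 RPM, while GKAO controls had 224, 229.9 and 287.1 RPM. The summed level in cDKO lay above all 6 controls.

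Complex IV, cytochrome c oxidase, reduces oxygen to water. No locus of the 14 was called in G9a cKO, and 2 rose in cDKO, where the median was 0.28 and 11 of 14 loci lay above 0. Beside this, 54.7% of named loci with at least 10 RPM lay above 0, with a median of 0.04. Over all loci, many without reads, these values were 75.6% and 0.20. The summed level was 455.7, 449.6 and 417.5 RPM in GKAQ controls and 661.6 and 526.4 RPM in cDKO. In GKAO controls it was 492.2, 441.5 and 532.1 RPM, and in G9a cKO 407.0, 487.8 and 534.4 RPM. The lower cDKO library thus lay within the range of the GKAO controls. Without Cox6c the sums were 321.4 to 365.8 RPM in GKAQ controls and 359.8 to 458.4 RPM in cDKO, and these groups overlapped. The ratio of their means was 1.35 with Cox6c and 1.17 without it, so part of the higher sum came from other loci. The separation of cDKO from GKAQ controls rested on Cox6c.

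Cox6c, a small nuclear subunit of complex IV, gave the strongest call among the members (locus chr15:35931976-35939281, minus strand). Its level was 89.9, 84.2 and 96.1 RPM in GKAQ controls and 203.3 and 166.6 RPM in cDKO. GKAO controls had 115.8, 86.9 and 116.6 RPM, and G9a cKO 101.9, 110.9 and 126.2 RPM. Both cDKO libraries lay above the other 9 libraries, and the gene rose by 1.03 on the log2 scale (SE 0.15, adjusted p = 2.6e-09). In G9a cKO the log2 fold change was 0.09 (95% interval -0.17 to 0.36, adjusted p = 0.65), and -0.046 without GKAO control library 2. The rise in cDKO was called under all 19 alternatives, with log2 fold changes of 0.89 to 1.18. RefSeq lists a pseudogene, Cox6c2, on another chromosome, which may share reads.

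Cox5a, another nuclear subunit of complex IV, also rose in cDKO (locus chr9:57521149-57532424, plus strand). It stood at 21.4, 18.8 and 16.8 RPM in GKAQ controls and at 34.2 and 36.8 RPM in cDKO, above the 14.2 to 25.0 RPM of the 6 libraries with the GKAO prefix. The difference on the log2 scale was 0.91 (SE 0.29, adjusted p = 0.031). This was the least stable of the cDKO calls: it was lost without GKAQ control library 2 (adjusted p = 0.083), GKAQ control library 3 (adjusted p = 0.14), cDKO library 1 (adjusted p = 0.13) or cDKO library 2 (adjusted p = 0.20), with log2 fold changes of 0.82 to 0.96. A locus on the opposite strand held 29 reads against 487. Its promoter window (chr9:57520982-57521281, plus strand), shown beside that of Ndufb4 as one of the genes that rose, held none of the searched motifs.
Cox5a: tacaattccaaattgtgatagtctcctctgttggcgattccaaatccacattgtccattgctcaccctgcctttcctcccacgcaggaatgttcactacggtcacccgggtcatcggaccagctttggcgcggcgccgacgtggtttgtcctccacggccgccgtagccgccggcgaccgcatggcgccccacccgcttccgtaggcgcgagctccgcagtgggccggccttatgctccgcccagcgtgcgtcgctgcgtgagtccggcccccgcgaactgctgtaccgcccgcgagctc

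The other complex IV loci included isoforms known from other tissues. Cox6b2, described as a testis isoform, had 1194 reads over the 11 libraries and its widely expressed counterpart Cox6b1 had 485, counts that are not per length, and the Cox6b2 locus spans 2.28 times the RefSeq gene. Cox6b2 had the lowest log2 fold change of complex IV in cDKO among loci with at least 10 RPM (-0.44, SE 0.20, adjusted p = 0.22), from 53.4, 60.0 and 45.3 RPM in GKAQ controls to 57.5 and 26.1 RPM. Without cDKO library 2 the value was 0.13, and without cDKO library 1 it was -1.01 (adjusted p = 0.0035), so the value rested on cDKO library 2, the one below the range of the controls. Cox4i2, the isoform known from lung, had 106 reads in all. Cox7a1, the heart and muscle isoform, had 3 reads and its counterpart Cox7a2 had 402. Cox8c, a testis isoform, had 10 reads beside 834 of Cox8a. Ndufa4l2, known as a gene induced by hypoxia, had 19 reads beside 404 of Ndufa4, and a locus on its opposite strand had 914. Ndufa4 was at 14.5, 17.9 and 12.8 RPM in GKAQ controls and at 20.5 and 7.1 RPM in cDKO (log2 fold change -0.30, SE 0.32, adjusted p = 0.57; 0.46 without cDKO library 2). Cox6a1 and Cox7b, counterparts of isoforms that were not matched, had 598 and 1392 reads. Cox4i1, Cox6a2, Cox7b2 and Cox8b were not analysed here.

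Complex V, the ATP synthase, has a catalytic head and a membrane rotor. Of its 16 loci none was called in G9a cKO, and 1 fell in cDKO, where the median was 0.17. The summed level was 1362.0, 1354.3 and 1302.7 RPM in GKAQ controls and 1479.8 and 1368.2 RPM in cDKO, which lay above them. In GKAO controls it was 1445.0, 1395.1 and 1421.6 RPM, so the lower cDKO library was below all of these. Atp5b, the catalytic beta subunit, took the most reads of any member (8031), at 351.3, 332.1 and 295.2 RPM in GKAQ controls and 423.6 and 319.5 RPM in cDKO. In GKAO controls it had 425.0, 441.5 and 411.4 RPM and in G9a cKO 423.7, 401.0 and 413.9 RPM. The 3 genes for the rotor subunit c, which all code for the same mature protein, had 314 reads for Atp5g1, 248 for Atp5g2 and 155 for Atp5g3. None was called. These counts are not per length, and the Atp5g1 locus spans 2.45 times its RefSeq gene while that of Atp5g3 spans 0.77 times its own. Part of the Atp5g1 reads may thus come from outside the gene. Atp5g1 had the highest log2 fold change of the complex in cDKO (0.65, SE 0.35, adjusted p = 0.36), at 12.5 and 24.3 RPM against 8.8 to 13.8 RPM; the value was 1.13 without cDKO library 1, 0.17 without cDKO library 2 and 1.47 with the title number as a term. Atp5sl, described apart from complex V, had 22.8 and 21.3 RPM in cDKO and 14.3 to 20.4 RPM in GKAQ controls (log2 fold change 0.37, SE 0.28, adjusted p = 0.57).

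Atp5k, subunit e of the ATP synthase, known for its place in synthase dimers, fell in cDKO (locus chr5:108433244-108435858, minus strand). Its level was 68.5, 66.3 and 57.2 RPM in GKAQ controls and 37.0 and 37.3 RPM in cDKO. GKAO controls had 41.1, 69.1 and 79.7 RPM and G9a cKO 42.2, 45.3 and 65.5 RPM, so the cDKO libraries were below the other 9. The gene fell by 0.78 on the log2 scale (SE 0.21, adjusted p = 0.0049), and by 0.83 between the 2 libraries titled GKAQ55, 1 of each genotype. No library left out ended the call, and 4 of 19 alternatives did (adjusted p = 0.17 to 0.26). RefSeq lists 4 pseudogenes of Atp5k, and the locus spans 2.27 times the RefSeq gene, so part of the reads may come from elsewhere. Its promoter window (chr5:108434350-108434649, minus strand) is shown because it holds 2 of the searched motifs. Capitals mark GCGCATGC, the letters searched for NRF1, found on both strands at overlapping positions, and CCGGAAG, searched for GABP and other ETS factors, on the opposite strand.
Atp5k: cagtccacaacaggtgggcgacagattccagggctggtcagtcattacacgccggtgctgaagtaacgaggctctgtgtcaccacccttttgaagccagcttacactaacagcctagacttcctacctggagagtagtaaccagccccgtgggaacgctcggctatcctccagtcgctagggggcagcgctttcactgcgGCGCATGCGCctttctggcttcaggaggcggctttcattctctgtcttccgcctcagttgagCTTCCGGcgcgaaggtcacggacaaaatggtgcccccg

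**Figure D2:**
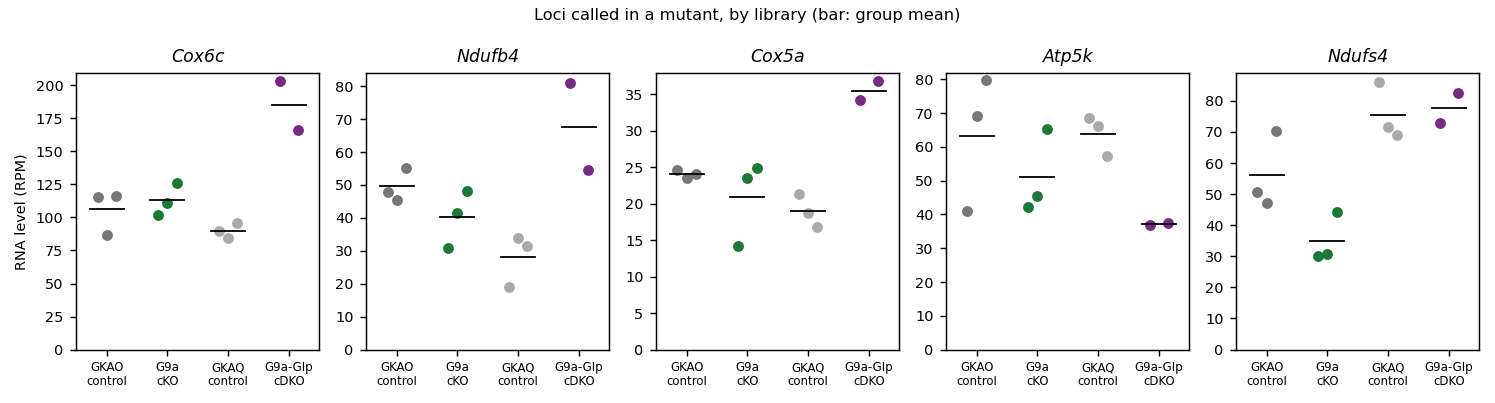
RNA level in RPM (y axis) of the 5 loci called in a mutant, one panel a gene, with a point per library in each of the 4 groups (x axis) and a bar at the group mean. Cox6c and Cox5a in cDKO lie above all other libraries and Atp5k below, Ndufs4 is lowest in G9a cKO, and for Ndufb4 the GKAQ controls are the lowest group.

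**Figure D3:**
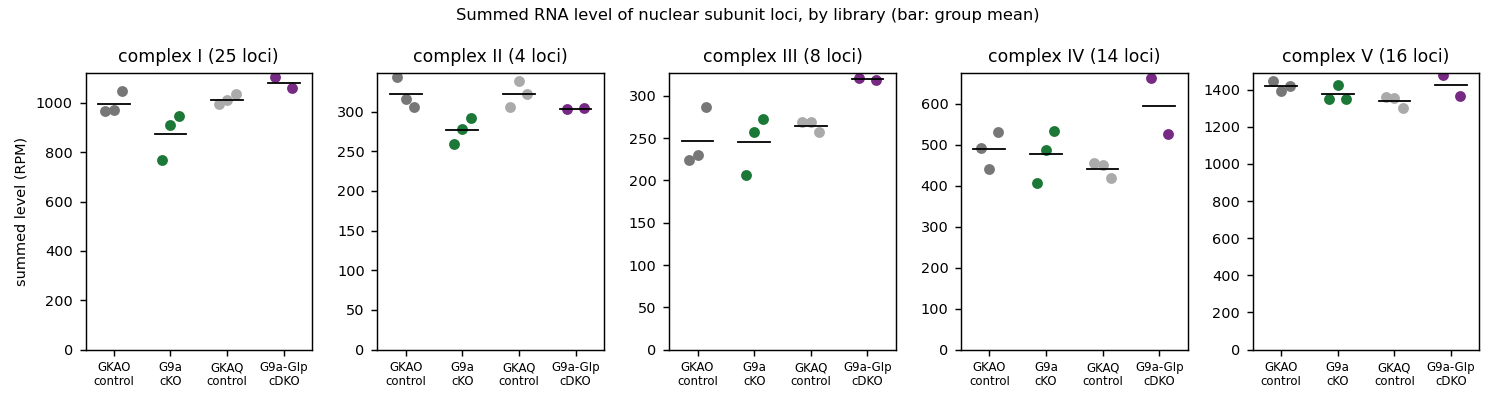
Summed RPM (y axis) over the loci of each complex, one panel a complex, with a point per library in each group (x axis) and a bar at the group mean. In cDKO complex III stands at 321.1 and 318.9 RPM and complex IV at 661.6 and 526.4 RPM, above their controls.

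The difference between the mutants was tested itself, as the cDKO effect minus the G9a cKO effect. It passed for 2 of 77 members, Ndufb4 (1.61, SE 0.31, adjusted p = 8.7e-05) and Cox6c (0.94, SE 0.20, adjusted p = 0.0013), both higher in cDKO, against 1.08% of all loci (0.685% higher) and 3.62% of named loci with at least 10 RPM. Without cDKO library 1 the difference for Cox6c was 0.80 (adjusted p = 0.054). For Atp5k the difference was -0.49 (95% interval -1.03 to 0.05, adjusted p = 0.18), for Cox5a 1.16 (0.40 to 1.92, adjusted p = 0.14) and for Ndufs4 0.73 (0.20 to 1.25, adjusted p = 0.17). These 3 genes were thus not shown to respond differently in the 2 mutants. Without GKAQ control library 1, 5 members passed, Cox5a and Ndufs4 among them (each adjusted p = 0.018).

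The control sets also differed from each other, although both are labelled Control. GKAQ against GKAO controls gave 10 of 77 calls (13.0%), 7 higher and 3 lower in GKAQ, against 3.87% of all loci (1.96% higher and 1.91% lower). Among members with at least 10 RPM the share was 14.5%, beside 15.1% of named loci at that level, so the members' share was close to the background. Of these 10 genes, 9 are named here, after their values were seen. Higher in GKAQ controls were Ndufv2 of the NADH module (0.94), Ndufa12 (1.69), the assembly factor Ndufaf2 (0.96), Uqcrq (0.72) and Uqcr11 (1.25) of complex III, and Atp5j2 (0.75) and Atp5c1 (0.63) of complex V. Atp5b (-0.39) and Ndufb4 (-0.86) were lower. Ndufa12 stood at 4.8, 5.2 and 5.3 RPM in GKAO controls and at 16.3, 14.2 and 19.2 RPM in GKAQ controls. Ndufaf2 had 24.7, 14.7 and 34.0 RPM against 47.1, 40.4 and 47.8 RPM. With 1 library left out, Ndufv2, Ndufa12 and Atp5b kept their calls throughout. Ndufaf2 lost it without GKAO control library 2 (adjusted p = 0.25), and Ndufb4 without GKAQ control library 1 (adjusted p = 0.072). Uqcrq, Uqcr11, Atp5j2 and Atp5c1 each lost theirs without any of 3 or more libraries. What separates the sets, such as strain or date, is not given, and such differences cannot be told apart from the prefix.

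Genes around the respiratory chain were counted from fixed lists. Of other subunits and carriers, 15 of 16 were matched and none was called in either mutant. Of other assembly factors, 17 of 37 were matched; none was called in G9a cKO, and in cDKO Uqcc, a complex III assembly factor, fell by 0.61 (SE 0.17, adjusted p = 0.0069; 0.094 without cDKO library 2). Of genes for mitochondrial DNA expression and nuclear regulators, 10 of 20 were matched and none was called in either mutant. Nrf1 had 220.3 to 251.3 RPM in GKAQ controls and 213.5 and 218.2 RPM in cDKO.

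Pyruvate dehydrogenase and citric acid cycle genes had 16 of 19 matched, with 1 higher and 1 lower in G9a cKO and 3 higher in cDKO. Among named loci with at least 10 RPM, 4.91% and 15.9% were called. Pdha2, the testis form of the pyruvate dehydrogenase E1 subunit, rose from 1, 2 and 3 reads in GKAO controls to 15, 12 and 10 in G9a cKO (2.42 on the log2 scale, SE 0.59, adjusted p = 0.0050). It also rose from 1, 10 and 7 reads in GKAQ controls to 11 and 23 in cDKO (2.15, SE 0.66, adjusted p = 0.023). Pdhx, which anchors E3 in that complex, fell by 0.49 in G9a cKO (SE 0.11, adjusted p = 0.0021), from 204.3, 174.4 and 239.1 RPM to 146.1, 136.0 and 153.5 RPM. Idh3a, a subunit of the NAD-dependent isocitrate dehydrogenase, rose by 0.55 in cDKO (SE 0.13, adjusted p = 0.0016), from 159.6, 154.6 and 174.0 RPM to 266.5 and 213.4 RPM. Idh2 rose from 4, 2 and 1 reads to 12 and 7 (2.40, SE 0.78, adjusted p = 0.038). Of 11 matched glycolysis genes of 16, 2 rose in cDKO: Aldoa by 0.56 (SE 0.15, adjusted p = 0.0070), and Pgam1 from 4, 2 and 2 reads to 18 and 13 (2.80, SE 0.71, adjusted p = 0.0027). Without cDKO library 1 Idh3a (0.39, adjusted p = 0.20), Idh2 (2.04, adjusted p = 0.37), Aldoa (0.37, adjusted p = 0.37) and Pgam1 (2.60, adjusted p = 0.089) lost their calls. Without cDKO library 2 Pdha2 (1.59, adjusted p = 0.45) and Idh2 (2.76, adjusted p = 0.094) lost theirs. With all 6 controls as one group, Aldoa (0.18, adjusted p = 0.87) and Idh2 (1.96, adjusted p = 0.080) were not called, and the Idh2 call was lost under 10 of 18 alternatives in all. Leaving out a control also ended calls: Pdha2 in cDKO without GKAQ control library 1 (1.29, adjusted p = 0.15), Idh2 without GKAQ control library 2 or 3 (adjusted p = 0.13 and 0.25), and Pdhx without GKAO control library 3 (-0.38, adjusted p = 0.12). Pdha2 in G9a cKO lost its call without G9a cKO library 2 (2.33, adjusted p = 0.056).

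RefSeq promoter windows of 300 bases (GRCm38.p6) were found for 65 member genes, and Cox6c was not among them. The letters GCGCATGC, searched on both strands for NRF1, stood in 10 of the 65 genes (15.4%), against 7.46% of named genes with at least 10 RPM and 3.05% of all genes with a window. CCGGAAG, for GABP and other ETS factors, stood in 18 (27.7%, against 21.0% and 9.93%). AAGATGGCG, for YY1, stood in 8 (12.3%, against 3.78% and 1.64%), and TCAAGGTCA, for ERR, in 2 (3.08%, against 0.222% and 0.466%). The median count of CpG in these windows was 20 for members, 21 for named genes with at least 10 RPM and 7 for all promoters. Such matches are descriptions of letters. Of the 4 called genes with a window, Atp5k held NRF1 and ETS letters and Ndufs4 the YY1 letters, as printed above, and Ndufb4 and Cox5a held none.

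H3K9me2 was read as a measure independent of the choice of genes, in windows of 10 kb. The control libraries held 7048784 and 19128881 reads, the G9a cKO libraries 1857144 and 1109191, and the cDKO libraries 1723142 and 1881848. Each library is scaled to its own total, so a loss over the whole genome cannot be seen in these values. In 174 windows at member loci the mean level relative to all windows of the same library was 0.92 and 0.88 for control libraries, 0.95 and 0.96 for those of G9a cKO, and 1.08 and 1.05 for those of cDKO. At named loci with at least 10 RPM it was 0.92 and 0.90, then 1.00 and 1.02, then 1.09 and 1.07. Both sets were thus relatively higher in cDKO libraries than in control libraries, and the members were no higher than other expressed loci.

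**Figure D4:**
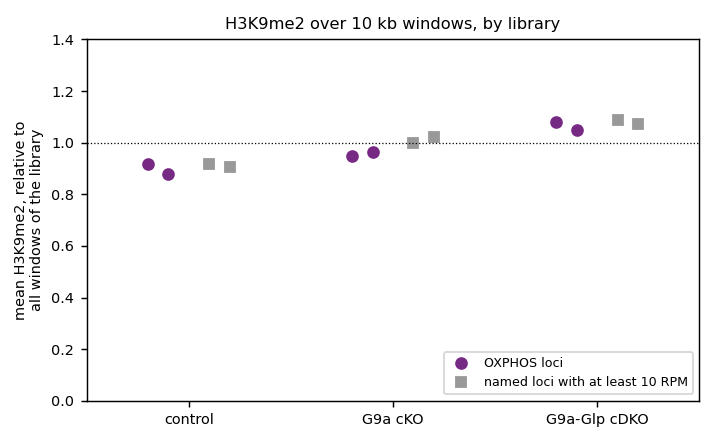
Mean H3K9me2 over 10 kb windows relative to all windows of the same library (y axis), a point per library in control, G9a cKO and cDKO (x axis), for oxidative phosphorylation loci (circles) and named loci with at least 10 RPM (squares). Member loci go from 0.92 and 0.88 in controls to 1.08 and 1.05 in cDKO, close to the squares.

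Member loci ranged widely in H3K9me2. In controls the mean percentile of a locus among all windows ran from 9.86 at Cox6c to 93.4 at Atp5k, with a median of 30.6 over 76 loci. The window at the start of Cox6c (chr15:35930001-35940000) had 2.27 and 2.98 RPM in control libraries, 1.62 and 3.61 RPM in those of G9a cKO, and 4.64 and 5.31 RPM in those of cDKO. The mutant values rest on 3 and 4 reads in G9a cKO and 8 and 10 in cDKO. Its difference in cDKO was not called (adjusted p = 0.65). The window at Atp5k (chr5:108430001-108440000) had 5.82 and 5.28 RPM in control libraries, 6.46 and 5.41 RPM in those of G9a cKO, and 2.90 and 5.31 RPM in those of cDKO (adjusted p = 0.74). Here the mutant values rest on 12 and 6 reads in G9a cKO and 5 and 10 in cDKO. In cDKO none of the 174 windows was called by limma, as none was over all 255057 windows tested (0.0%); 9 of 174 had an unadjusted p under 0.05 (5.17%, against 9.0% of all windows).

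In G9a cKO, 2 of the 174 windows were called, both higher, against 1.85% of all windows. A window at the end of Ndufv3 (chr17:31530001-31540000) went from 4.26 and 4.03 RPM in control libraries to 12.4 and 11.7 RPM without G9a, with 6.38 and 7.97 RPM in cDKO (1.54 on the log2 scale for G9a cKO, SE 0.29, adjusted p = 0.043). Only 1321 bases of this 10 kb window overlap the locus, so most of it lies beyond the gene. The window at the start of Ndufv3 (chr17:31520001-31530000) was not called in G9a cKO by limma (1.02, adjusted p = 0.24). A window at Cox7a2l (chr17:83500001-83510000), a gene known for its part in respiratory supercomplexes, went from 3.97 and 4.29 RPM to 15.1 and 9.92 RPM, with 9.87 and 6.91 RPM in cDKO (1.57, SE 0.32, adjusted p = 0.046). The G9a cKO values rest on 11 to 28 reads a window. Leaving out G9a cKO library 1 gave 7 such windows, and leaving out any other library gave 0. The RNA of neither gene was called in G9a cKO.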

How the data were processed

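RNA-seq loci and H3K9me2 windows were measured in oocyte libraries, and the other assays of the series were not used here. The authors deposited 1 column per library of log2 RPM, with loci of no read set to 0.9 read; whole reads were recovered from the steps (100% within 0.1 read). Per the submitters' processing notes, HISAT2 2.1.0, Bowtie2, Trim Galore and GRCm38 were used, with no role given; how reads were counted is not given in the sources used here. The deposited log2 values were not counts, so limma 3.58.1 (R 4.3.3; eBayes with trend and robust fitting, two-sided) was fitted on all 38540 loci and 11 libraries with a mean per group, and on 255057 windows with a read in 6 libraries. Benjamini-Hochberg adjustment ran over all loci or windows, and an adjusted p under 0.05 was called. Each mutant was set against the controls of its title prefix. The fit was tested on simulated data. Named genes were all called members, per complex the locus with most reads and the lowest and highest cDKO change, tissue isoforms with counterparts, and at most 4 called genes of each other list; 1 complex I locus is counted but not reported by name here. The members, lists and tests were chosen with earlier results of these data known. In the H3K9me2 table, 4 columns with no sample label here were not used. Alternatives were a 10 RPM filter, median centring, a pseudocount of 1, voom weights on the recovered reads, plain eBayes, the title number as a term, pooled controls, each contrast alone and leaving out each library. With 1 library left in cDKO, its spread is taken from the other groups. Depth limits precision: 1 read was 0.417 to 0.685 RPM, and 3 reads 1.25 to 2.06 RPM.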

Additional observations from a re-analysis of the deposited data

Results flagged for a closer look

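Ndufb4 and Cox6c stood out because the effect itself differed between the mutants. For Ndufb4 the cDKO effect exceeded the G9a cKO effect by 1.61 on the log2 scale (adjusted p = 8.7e-05), and for Cox6c by 0.94 (adjusted p = 0.0013), both by limma with Benjamini-Hochberg adjustment over all loci. The Cox6c levels of both cDKO libraries lay above the other 9 libraries. For Ndufb4 the GKAQ controls were also 0.86 log2 units below the GKAO controls (log2 difference -0.86, adjusted p = 0.0013). Each effect is taken from its own controls, so the 1.61 contains this gap between the control sets in full. The log2 means of Ndufb4 were 6.05 in cDKO and 5.30 in G9a cKO, and 4.76 in GKAQ and 5.63 in GKAO controls. What set the control sets apart was not tested.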

How the results depend on the processing

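The count of members called in G9a cKO, 1 as reported, was 2 with the 10 RPM filter, 0 with log2(RPM + 1), 0 with voom weights, 0 with plain eBayes, 2 with the title number as a term, 5 with all 6 controls as one group and 0 with only its own groups fitted; leaving out libraries gave 0 to 1, with 0 without GKAO control library 3, G9a cKO library 1 or G9a cKO library 2. In cDKO, 4 as reported became 2 with log2(RPM + 1), 7 with voom weights, 1 with plain eBayes and 2 with the title number as a term, and 3 to 5 without a library. The difference of effects, 2 as reported, gave 0 with log2(RPM + 1), 0 with voom weights, 0 with plain eBayes and 1 with the title number as a term, and 1 to 5 without a library (5 without GKAQ control library 1, 1 without cDKO library 1). GKAQ against GKAO controls, 10 as reported, gave 2 with log2(RPM + 1), 5 with voom weights, 1 with plain eBayes and 5 to 10 without a library (5 without GKAO control library 2, 6 without GKAQ control library 1); the title number could not be fitted there, since no number spans both sets. H3K9me2 windows called in G9a cKO, 2 as reported, were 4 over all windows, 1 over windows with a read in every library, 1 with an overlap of at least 5000 bases, 0 with plain eBayes and 0 to 7 without a library. The cause of these changes was not tested.

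Of single calls, Cox6c in cDKO held under all 19 alternatives; Cox5a lost its call under 9, Atp5k under 4, Ndufb4 under 3 and Ndufs4 in G9a cKO under 7 of 19. The differences of effects for Ndufb4 and Cox6c were each lost under 4 of 17, both with log2(RPM + 1), voom weights and plain eBayes. Uqcrb was called in cDKO with the 10 RPM filter (0.80), log2(RPM + 1) (0.77) and voom weights (0.82), Sdha with voom weights (-0.26), and Cox6b2 with pooled controls (-0.65, adjusted p = 0.0325) and the title number (-1.20, adjusted p = 0.0119). Among genes of the other lists, calls were lost under 10 of 18 alternatives for Idh2 in cDKO, 6 of 18 for Pdha2 in cDKO, and 4 each for Pdha2 and Pdhx in G9a cKO and for Aldoa, Pgam1, Idh3a and Uqcc in cDKO. Among the values given, signs turned for these, none of them called in the results as reported: in cDKO Ndufs4 was -0.052 with median centring, Sdhaf2 -0.20 with the title number and Ndufaf2 0.014 with pooled controls, and in G9a cKO Ndufb4 was 0.11 with pooled controls. Without single libraries, Ndufs4 in cDKO ran from -0.046 to 0.14 (below 0 without GKAQ control library 3 or cDKO library 2), Ndufa4 in cDKO from -1.07 to 0.46 and Cox6b2 from -1.01 to 0.13 (above 0 without cDKO library 2), Cox6c in G9a cKO from -0.046 to 0.17 (below 0 without GKAO control library 2) and Cox5a in G9a cKO from -0.40 to 0.0076 (above 0 without G9a cKO library 1). Only the titles GKAO109, GKAO115 and GKAQ55 hold both a control and a mutant library, so the fit with the title number compares within those.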
